A study of Mus musculus with 3 samples.

Results

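The 10 genes described here encode the transforming growth factor beta (TGF-beta) ligands Tgfb1, Tgfb2 and Tgfb3, the receptors Tgfbr1, Tgfbr2 and Tgfbr3, the intracellular inhibitors Smad7 and Skil, and the latent TGF-beta binding proteins Ltbp1 and Ltbp2. They were chosen by symbol, through the RefSeq accession that the scanner files give each probe, and all 10 were found among 20886 named genes. They were read by 14 probes on 41 spots per array, and each of the 14 probes was well above background on all 3 arrays. Gene expression was measured on one-colour Agilent arrays of primary endothelial cells from the penile cavernous tissue of C57BL/6 mice. Culture was for 48 h at normal glucose (5 mmol as labelled), at high glucose (30 mmol), or at high glucose plus DKK2, a secreted modulator of Wnt signalling. All 3 conditions shared a medium with fetal bovine serum, heparin and vascular endothelial growth factor A, so cells of the normal glucose group had these too. Each array took a pool of RNA from 3 samples, leaving 1 array per condition, so no difference here has a replicate check and no p-value was computed. Animal age and the dose of DKK2 are not given in the sources used here.

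TGF-beta ligands are secreted as latent complexes, in which the ligand's own propeptide keeps it inactive and a latent TGF-beta binding protein such as Ltbp1 tethers it to the matrix. Once released, a ligand binds the type II receptor Tgfbr2, which recruits and phosphorylates the type I receptor Tgfbr1, and SMAD proteins carry the signal to the nucleus. Smad7 and Skil are themselves induced by the pathway and restrain it. In vascular tissue the pathway is known for its effects on matrix production, on smooth muscle genes and on endothelial growth.

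Because the results turn on how differently the ligand genes read, the promoter windows of Tgfb1 and Tgfb2 are shown, from 250 bases before to 50 after the start of the gene (RefSeq, GRCm38.p6). The window of Tgfb1 is chr7:25686752-25687051, plus strand, and that of Tgfb2 is chr1:186705940-186706239, minus strand. Capitals mark motif matches.
Tgfb1: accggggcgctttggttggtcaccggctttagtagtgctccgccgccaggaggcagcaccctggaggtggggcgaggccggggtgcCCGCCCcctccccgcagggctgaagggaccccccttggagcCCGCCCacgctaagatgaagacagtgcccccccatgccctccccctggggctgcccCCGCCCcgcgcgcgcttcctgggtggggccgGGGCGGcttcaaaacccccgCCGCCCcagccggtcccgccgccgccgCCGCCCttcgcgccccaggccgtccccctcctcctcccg
Tgfb2: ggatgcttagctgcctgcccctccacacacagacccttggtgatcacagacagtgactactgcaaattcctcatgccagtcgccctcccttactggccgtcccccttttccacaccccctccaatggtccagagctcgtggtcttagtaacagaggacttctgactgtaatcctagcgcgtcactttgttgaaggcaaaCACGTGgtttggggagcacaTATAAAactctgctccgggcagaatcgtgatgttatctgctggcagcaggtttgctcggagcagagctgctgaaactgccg
The 7 motifs searched, on both strands, were the AP-1 site TGANTCA, the cyclic AMP response element TGACGTCA, the E-box CACGTG, the SMAD box GTCTAGAC, the GC box GGGCGG, the TCF site CTTTGAT and the TATA box TATAAA. In the window of Tgfb1 all capitals are GC boxes, 6 in all, the nearest before the gene start beginning 16 bases upstream of it. The window of Tgfb2 held no GC box but 1 E-box, beginning 51 bases upstream, and 1 TATA box, beginning 31 bases upstream. Of all 32851 windows in the table, 35.7% held a GC box, 7.15% the E-box and 13.6% the TATA box. The base composition differed as well, with 77.0% G or C in the Tgfb1 window and 54.3% in that of Tgfb2. No matches overlapped, and a match describes letters, not a bound factor. Of the 10 genes, 6 matched the promoter table.

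The arrays differed in brightness, and the 75th percentile of signal was 1201 for normal glucose, 2380 for high glucose and 2417 for DKK2. Each signal was therefore divided by its array's 75th percentile, and values below are this scaled signal unless called unscaled. By the scanner's own error estimate, the technical SD of a log2 difference was 0.20 (called the error below), and variation between cultures is not part of it. A gene was called higher or lower where it was at least 2-fold apart (a log2 difference of 1 or more in size). Signals of different probes were not set against each other. The label was compared with marker genes. Of 12 endothelial markers, 10, 12 and 11 were well above background in normal glucose, high glucose and DKK2, with Kdr, the main receptor of vascular endothelial growth factor A, at an unscaled 3648, 9128 and 10901. The junction gene Pecam1 was at an unscaled 135, 369 and 435, and Cdh5 at 195, 568 and 311. Emcn and Erg were not well above background in normal glucose, and Erg was not with DKK2. All 10 fibroblast markers and all 10 smooth muscle and pericyte markers were also above background on every array. So were all 6 adipocyte markers, all 6 skeletal muscle markers and the 9 macrophage and leukocyte markers with a matched probe. Being above background therefore did not set the endothelial list apart from the others. The scaled signals of the 12 endothelial markers summed to 4.804, 6.916 and 7.755 on the 3 arrays, and sums of the other lists are given below. Kdr alone made up 3.04, 3.84 and 4.51 of the endothelial sums. The sums of the lists come from different probes. Cell type shares are unknown here, and in pooled RNA fewer cells of a type and less RNA per cell cannot be told apart.

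On brightest probes, Tgfb1 had the largest difference from normal glucose of the 10 genes, and it was lower in high glucose with or without DKK2. Tgfb1, the most widely expressed of the ligands, had scaled signals of 1.44, 0.367 and 0.563 in normal glucose, high glucose and DKK2. It was thus high in normal glucose, lowest in high glucose, and between them with DKK2. High glucose read 3.92-fold lower (log2 difference -1.97, error 0.20), and 162 of 16771 genes measured on both arrays (0.966%) lay lower still. The direction was the same without scaling: normal glucose gave an unscaled 1730 and high glucose 874, although the high glucose array was the brighter one. Unscaled, the other 9 genes read higher in high glucose, as did most genes, since 5.85% of all genes read lower. With DKK2, Tgfb1 was 1.53-fold above high glucose (log2 difference 0.62) and still 2.56-fold below normal glucose (-1.35).

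The single probe of Tgfb1 was printed 10 times on each array, so its technical spread could be read directly. Unscaled spot signals ran from 1647 through a median of 1733 to 1831 for normal glucose, from 815 through 865 to 940 for high glucose, and from 1279 through 1338 to 1453 for DKK2. The spot ranges of the 3 arrays did not overlap. Compared at the same position on both arrays, the 10 glucose differences lay between -2.01 and -1.91 (SD 0.030), and the 10 DKK2 differences between 0.58 and 0.67 (SD 0.031). Spots of 1 array share the RNA pool and the hybridisation, so this spread says nothing about other cultures. No second Tgfb1 probe was there to read the gene at another place.

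**Figure D1:**
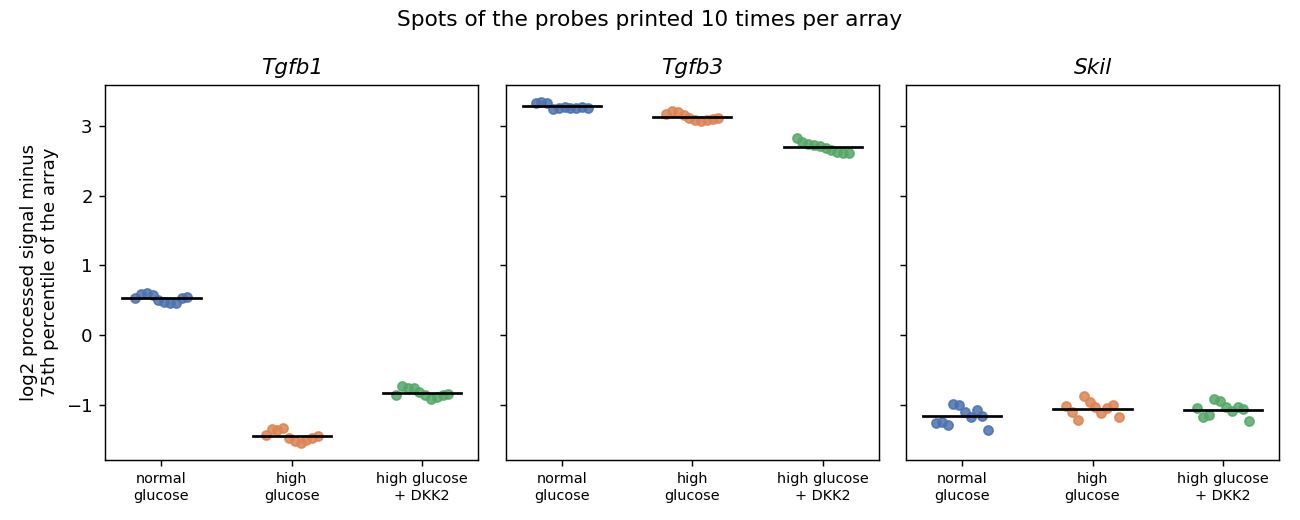
Scaled signal (log2, relative to the 75th percentile of each array) of every spot of the Tgfb1, Tgfb3 and Skil probes, each printed 10 times per array; points are spots, coloured by condition and spread sideways for visibility, and bars are means over spots. The Tgfb1 spots form 3 separate levels, with high glucose the lowest, while the Skil spots of the 3 arrays overlap.

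Tgfb2, a ligand with known roles in the transition of endothelial to mesenchymal cells, had scaled signals of 1.06, 1.00 and 1.75 in normal glucose, high glucose and DKK2 on its brighter probe. The first 2 arrays read alike and the DKK2 array was high, 1.75-fold over high glucose (log2 difference 0.80). On brightest probes this was the largest DKK2 difference upward among the 10 genes. The second Tgfb2 probe differed less, with 0.335, 0.385 and 0.452, and gave 0.23 for DKK2 against high glucose. Both probes read highest with DKK2, but they differed on the size. The mean over them was 0.52, below the 0.62 of Tgfb1.

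Tgfb3, the third ligand, was highest in normal glucose and lowest with DKK2, with scaled signals of 9.73, 8.78 and 6.48. The glucose difference of -0.15 was smaller than the error of 0.20, and the DKK2 difference was -0.44. At all 10 positions of its probe the Tgfb3 spots were lower in high glucose than in normal glucose (-0.18 to -0.08) and lower again with DKK2 (-0.51 to -0.34). With DKK2 in high glucose, Tgfb1 and Tgfb2 thus read higher than in high glucose alone and Tgfb3 lower. Each of these differences was under 2-fold.

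The latent binding proteins read in opposite directions. Ltbp1, which tethers latent TGF-beta to the matrix, had scaled signals of 14.5, 10.3 and 8.43 in normal glucose, high glucose and DKK2. The log2 differences were -0.49 for glucose and -0.29 for DKK2, and it was 1.73-fold lower with DKK2 than in normal glucose (-0.79). Ltbp2, a matrix relative of Ltbp1 that does not bind latent TGF-beta, read 21.7, 27.4 and 30.3, so it was highest with DKK2 and 1.39-fold above normal glucose (0.48). Its DKK2 difference, 0.14, was within the error and turned to -0.05 with quantile normalization. Each gene had 1 probe on 1 spot.

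Among the receptors, the type I receptor gene Tgfbr1 had scaled signals of 1.08, 1.32 and 1.75 on its brighter probe. It was lowest in normal glucose and highest with DKK2, with log2 differences of 0.29 for glucose, 0.41 for DKK2 and 0.70 for DKK2 against normal glucose. The second Tgfbr1 probe was dim, with unscaled signals of 13.2, 74.6 and 107, and read higher by 1.51 in high glucose. On that probe the direction depended on the processing. Normexp correction, which adds an offset of 50 to every signal before scaling, gave -0.94. For DKK2 against high glucose the dim probe gave 0.50, and 0.28 with normexp. For DKK2 against normal glucose it gave 2.01, or 4.03-fold, and -0.66 with normexp.

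The type II receptor gene Tgfbr2 read 11.1, 14.8 and 12.8 on its brighter probe and 0.269, 0.292 and 0.279 on the other. On both probes high glucose was the highest array and normal glucose the lowest, though the second probe's differences, 0.12 and -0.07, were within the error. With normexp the second probe gave -0.12 for glucose and -0.16 for DKK2 against normal glucose, so normal glucose was then its highest array. Tgfbr3, the gene of the co-receptor betaglycan, which presents ligand to Tgfbr2, read 13.9, 15.4 and 14.9. Its differences were 0.15 for glucose, -0.05 for DKK2 and 0.10 for DKK2 against normal glucose, all within the technical error.

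The feedback inhibitors did not read alike. Smad7, which blocks Tgfbr1 and marks it for breakdown, had scaled signals of 0.794, 1.03 and 0.630. It was highest in high glucose and lowest with DKK2, at a log2 difference of 0.37 for glucose and -0.70, or 1.63-fold lower, for DKK2, the largest DKK2 difference downward among the 10 genes. In the DKK2 comparison 1563 of 17825 genes (8.77%) lay lower than Smad7. Skil, the gene of the SnoN protein, which represses SMAD target genes, read 0.445, 0.481 and 0.476 on a probe printed 10 times. At all 10 positions the Skil spots were higher in high glucose than in normal glucose (0.03 to 0.23), and higher with DKK2 than in normal glucose (0.03 to 0.20). Skil spots in high glucose and with DKK2 overlapped, with 5 of 10 positions above 0 and 5 below, and the second Skil probe gave -0.19 for glucose and 0.16 for DKK2. None of these Skil differences was beyond the error of 0.20 or 0.21 in mean over spots. The second probe was dim, with unscaled signals of 60.0, 104 and 118. With normexp it gave -1.06 for glucose and -0.88 for DKK2 against normal glucose.

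**Figure D2:**
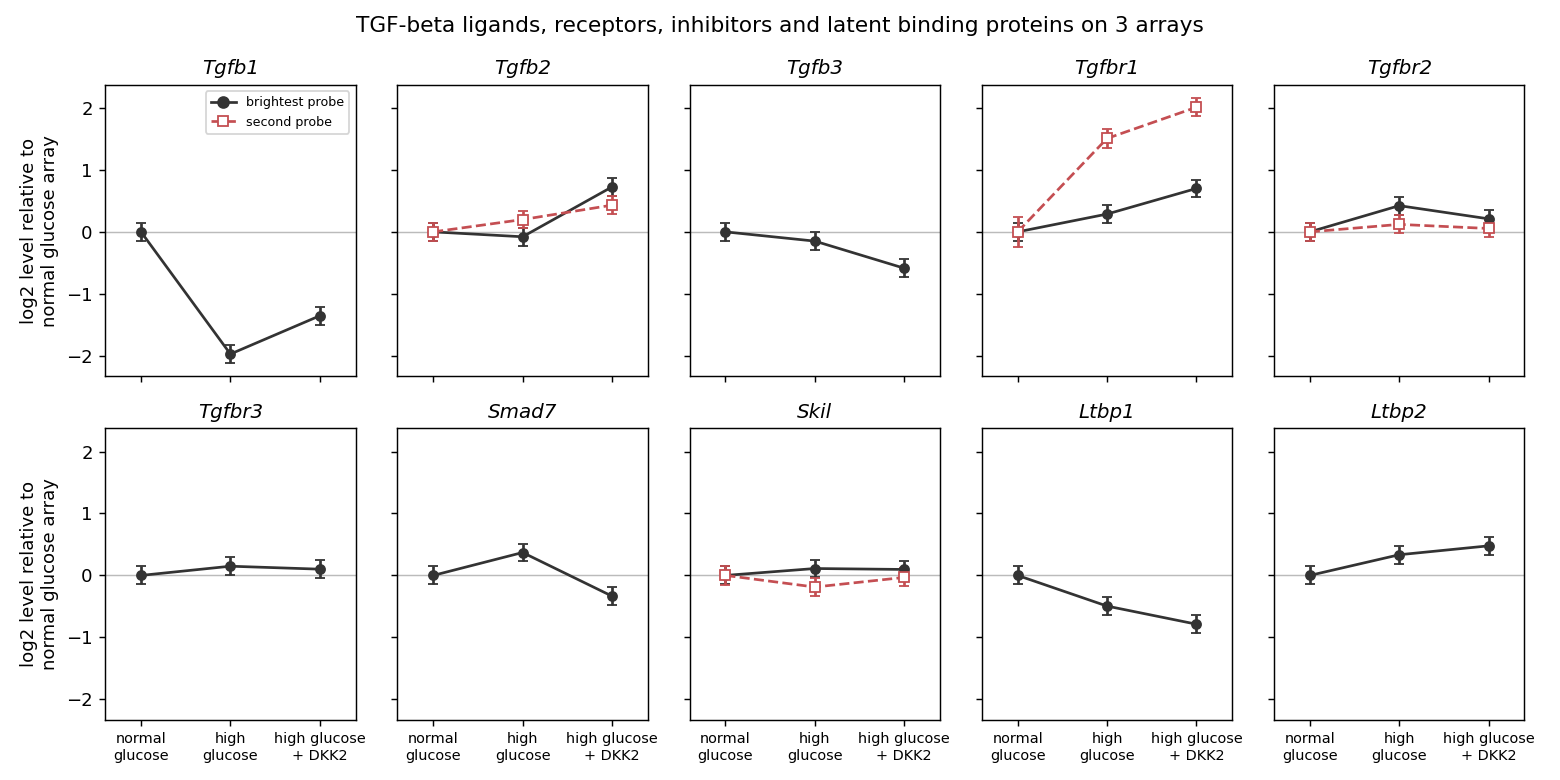
Level of each gene on the 3 arrays as a log2 difference from the normal glucose array; filled circles are the brightest probe, open squares the second probe where there is one, and bars are the scanner's technical error (SD) of each array's own value. Tgfb1 is the only gene whose brightest probe lies past 1 in size, at -1.97 and -1.35, and the second Tgfbr1 probe is the dim one with signals of 13.2 to 107.

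The counts of the 10 genes were then read beside those of all genes. In high glucose against normal glucose 1 of 10 was lower (Tgfb1) and 0 were higher, where 8.40% of 16771 genes passed 2-fold in either direction, 5.72% lower and 2.67% higher. The median of the 10 was 0.13 and that of all genes 0.09. For DKK2 against high glucose 0 of 10 passed 2-fold, where 9.93% of 17825 genes did, and the medians were -0.03 and 0.08. For DKK2 with high glucose against normal glucose 1 of 10 was lower, again Tgfb1, where 20.8% of 16676 genes passed 2-fold and 10.4% were lower, and the medians were 0.10 and 0.12. These 3 comparisons share arrays, so a gene that reads low on 1 array enters 2 of them.

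**Figure D3:**
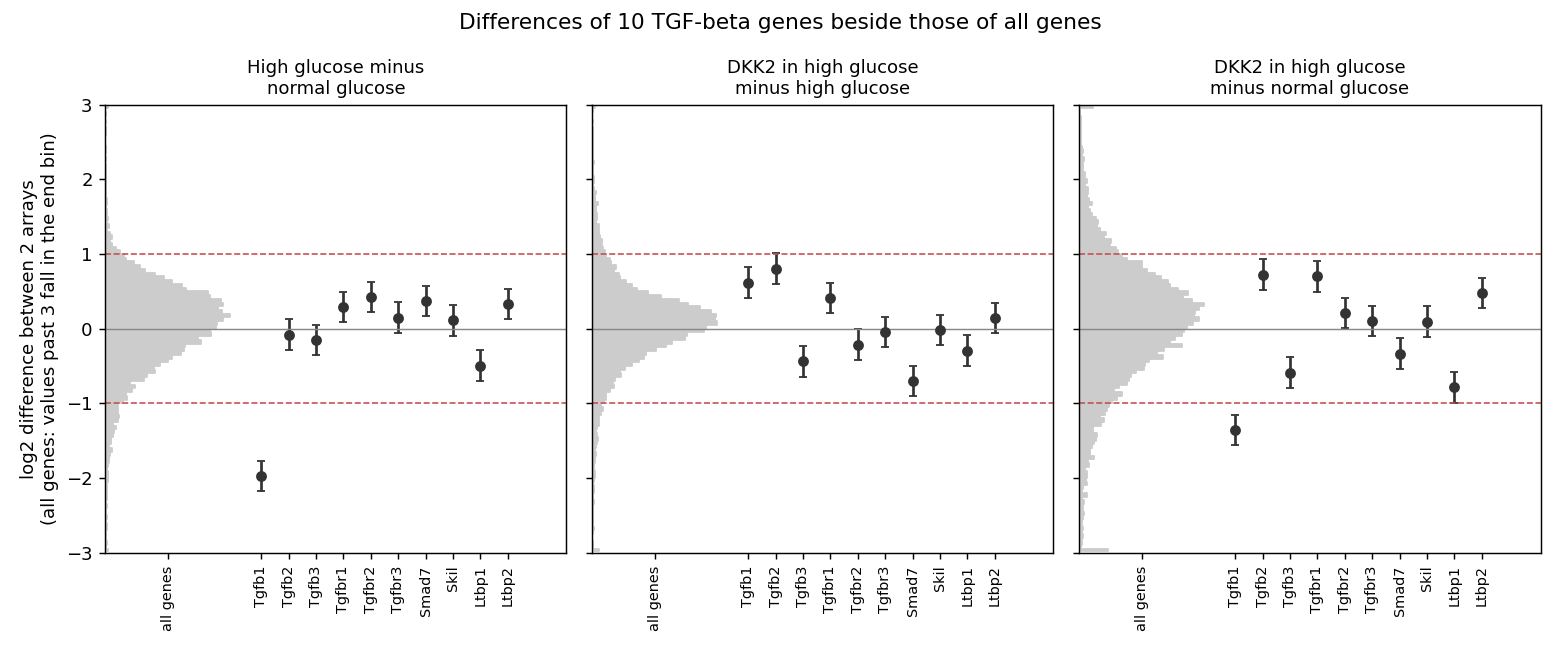
Log2 difference of each of the 10 genes (points, brightest probe, bars are the technical error SD) beside the distribution over all genes measured on both arrays (grey histogram, height scaled to its highest bin) for the 3 comparisons; dashed lines mark 2-fold. Tgfb1 lies beyond the lower line in both panels that compare with normal glucose, and no point lies beyond either line in the second.

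Other genes of the pathway were counted by role. Of 9 further receptors and co-receptors of the family, 1 was higher and 1 lower in high glucose, where 2.67% and 5.72% of all genes were. The lower one was Bmpr2, the type II receptor gene for bone morphogenetic proteins, at -1.26 (error 0.20) with unscaled signals of 2513 in normal glucose and 2075 in high glucose. The higher one, Acvr1b, an activin receptor gene, was at 1.16 but at -0.77 with normexp. With DKK2 against high glucose 0 of 9 passed 2-fold, where 9.93% of all genes did, and the median was -0.46 beside 0.08 for all genes. With DKK2 against normal glucose 1 of 9 was higher and 2 lower, where 10.5% and 10.4% of all genes were. The lower ones were Bmpr2 at -1.72 and Acvrl1, another type I receptor gene, at -1.08 (-0.90 with normexp). Acvr1b was at 1.33 there, and at -0.63 with normexp.

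SMAD genes stayed mostly within 2-fold. Of 8 SMAD genes and partners, 0 were higher and 1 lower in high glucose, where 2.67% and 5.72% of all genes were. That one was Zfyve9, whose protein SARA presents Smad2 and Smad3 to the receptor, at -1.14. The signal transducers Smad2, Smad3 and Smad4 were at 0.60, 0.23 and 0.00 in high glucose and at 0.25, -0.18 and -0.18 for DKK2. Smad6, an inhibitory SMAD gene like Smad7, was at 0.36 in high glucose and at -1.02 with DKK2 (-0.97 with normexp). It was the 1 gene of this list that was lower with DKK2, where 4.85% of all genes were.

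Of 11 measured negative regulators, 1 was lower in high glucose and 0 higher, where 5.72% and 2.67% of all genes were. With DKK2 against high glucose 0 passed 2-fold, where 9.93% of all genes did. The gene lower in high glucose was Ski, the paralogue of Skil, with unscaled signals of 922, 582 and 433 in the order above. The log2 differences of Ski were -1.65 in high glucose and -2.10 with DKK2 against normal glucose, and those of Skil 0.11 and 0.10. The induced inhibitor Pmepa1 was at 0.49 in high glucose and 0.00 for DKK2. Bambi was not measured on both arrays of any comparison.

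Genes of latency and activation were read at 16 of 17. In high glucose 2 were lower and 0 higher, where 5.72% and 2.67% of all genes were. The lower ones were Emilin1 at -1.63 and Mmp2 at -1.04 (-0.95 with normexp). Emilin1 encodes a matrix glycoprotein that restrains the processing of the TGF-beta precursor. With DKK2 against high glucose 3 were lower and 1 higher, where 4.85% and 5.08% of all genes were. Thbs1, whose protein thrombospondin activates latent TGF-beta, was at -1.11, with unscaled signals of 103604, 161738 and 75970. Ltbp4 was at -1.03, and its second probe at -0.69. Plau, the urokinase gene, was at -1.14. Nrros, which encodes a protein that holds latent TGF-beta on macrophages and microglia, was at 1.23, with unscaled signals of 105, 375 and 893. Macrophage and leukocyte markers read in the same direction as Nrros. Of 9 measured, 7 were higher with DKK2 (6 with normexp) and 0 lower. With a minimum signal of 100 on all arrays 4 were left, of which 3 were higher. The summed scaled signal of the 9 markers was 2.61, 3.18 and 9.33 on the 3 arrays. Adgre1, which encodes the macrophage antigen F4/80, was at an unscaled 83.3, 264 and 899, and Csf1r, the macrophage growth factor receptor gene, at 1270, 2511 and 4977. Cd68, another gene of this marker list, had no probe matched to its symbol, so it was not read. The part of these markers in the Nrros value was not tested.

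Secreted binders and related ligands had 12 of 13 genes measured. Gdf15, a distant family member induced by cell stress, was at 2.41 with DKK2, with unscaled signals of 2925, 6021 and 32455. Fmod, the gene of fibromodulin, a matrix proteoglycan that binds TGF-beta, was at -1.61 with DKK2 (-1.22 with normexp). In high glucose Gdf11, a ligand of the activin branch, was at -1.47 on a dim probe with an unscaled signal of 101 in normal glucose. Lrg1 was at 1.31 there and at 0.70 with normexp. The list medians, -0.02 and 0.02, were close to 0 in both comparisons.

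The list with the most genes past 2-fold was also the longest, that of the pathway's response genes, all 28 of which were measured. In high glucose 1 was higher and 2 lower, where 2.67% and 5.72% of all genes were, with a median of -0.06. Itga11, a collagen-binding integrin gene, was at 1.24, and Eln, the elastin gene, at -1.06. With DKK2 against high glucose 8 of 28 were lower and 0 higher, with a median of -0.32 where all genes had 0.08 and 4.85% of genes were lower. The count of 8 lower and 0 higher was the same under all 8 alternatives. The list was chosen with earlier results of these data known, so the share of all genes is no test of this count. The largest were Ccn2, a matricellular protein gene, at -2.62, Itga11 at -2.47, Postn, the periostin gene, at -2.44 and Loxl2 at -2.00, and the other 4 lay between -1.67 and -1.26. Unscaled signals of Ccn2 were 16041, 38593 and 6389, and those of Itga11 were 484, 2269 and 417. Both were highest in high glucose and lowest with DKK2. After scaling, high glucose against normal glucose was 0.28 for Ccn2 and 1.24 for Itga11. The other 2 probes of Loxl2 read -1.35 and -0.60. Below 2-fold were, among others, Col1a1 at -0.76, Tagln at -0.22 and Fn1 at 0.13.

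The 8 response genes were lower with DKK2 in the same comparison in which Tgfb1 and Tgfb2 read 0.62 and 0.80, and Smad7 -0.70. The second Tgfb2 probe read 0.23. In that comparison 2 of 11 measured endothelial markers were lower (0 with normexp) and 0 higher, with a median of 0.18. Markers of other cell types differed there too, where 4.85% of all genes were lower and 5.08% higher. Of 10 fibroblast markers 4 were lower and 0 higher with DKK2, and their scaled signals summed to 333.2, 329.5 and 222.8 on the 3 arrays. Dpt was at -2.68, Pdgfra at -0.62 and Fap at -0.52. Of 10 smooth muscle and pericyte markers 2 were lower (1 with normexp) and 0 higher, with sums of 82.4, 52.6 and 32.3. Acta2 alone made up 41.3, 21.0 and 6.60 of these sums and was at -1.67, while Myh11 was at -0.36. In high glucose against normal glucose 0 of these 10 markers passed 2-fold, where 8.40% of all genes did. Their median was 0.09 (4 were lower with normexp). The response list and these marker lists share Acta2, Tagln, Cnn1, Postn and Col1a1. Adipocyte markers (5 of 6 lower, sums 15.5, 23.5 and 8.06) and skeletal muscle markers (4 of 6 lower, sums 1.88, 1.48 and 0.465) were lower as well, with Fabp4 at -1.09, Acta1 at -1.27 and Ckm at 0.34. Adipoq, Plin1 and Myl1 were dim with DKK2, at an unscaled 28.7, 36.6 and 18.2, and the size of their differences depended on the processing. Adipoq was at -6.20 and at -4.18 with normexp, Plin1 at -3.71 and -2.41, and Myl1 at -5.47 and -3.17. Their part in the values of the TGF-beta genes was not tested.

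Against normal glucose, the DKK2 array had 9 of 28 response genes lower and 1 higher, with a median of -0.61, where 10.4% of all genes were lower. Loxl2 was at -2.70, Acta2, the smooth muscle actin gene, at -2.64, Ccn2 at -2.34 and Postn at -1.88. The higher gene was Tnc, which was at 1.04 but at -0.35 with normexp. Of the 16 latency genes 4 were lower and 1 higher, with Ltbp4 at -1.56, Emilin1 at -1.51, Thbs1 at -1.46 and Nrros at 2.08 (1.19 with normexp). In the remaining lists Zfyve9 was at -1.75, Fmod at -1.57 and Gdf15 at 2.46.

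**Figure D4:**
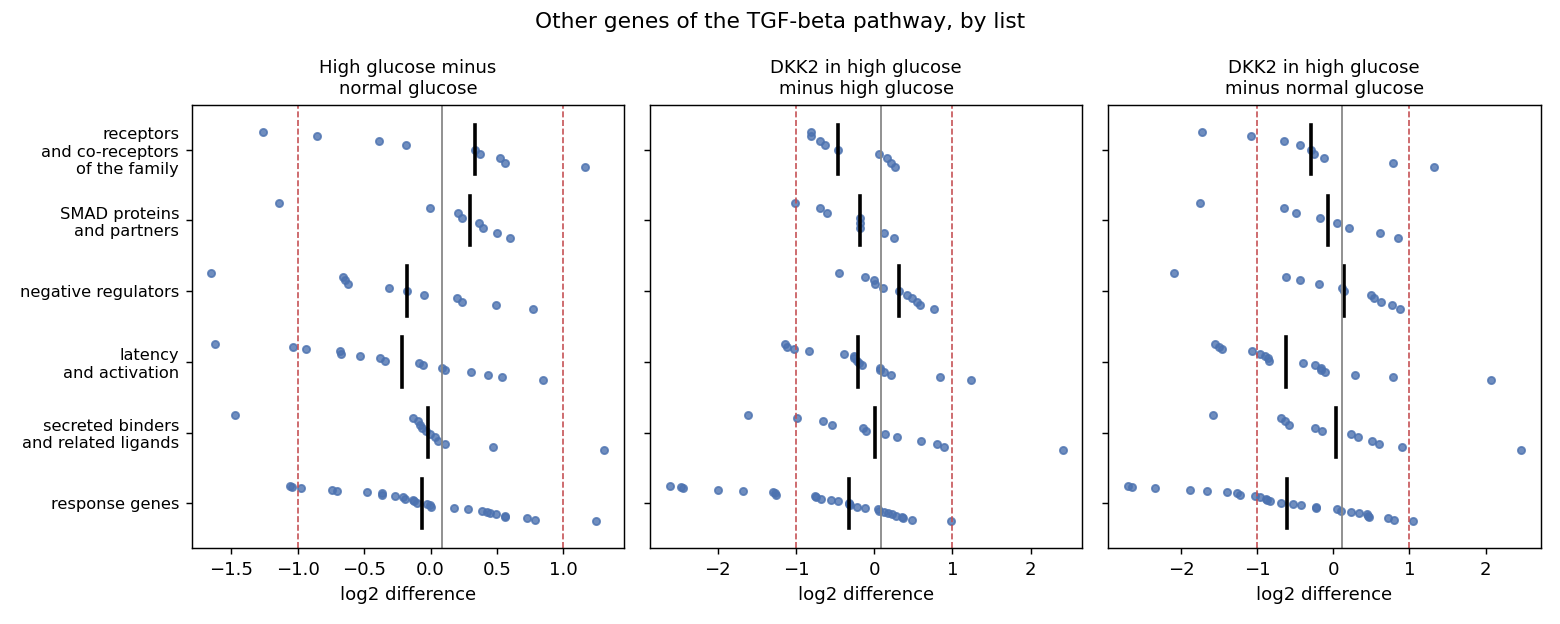
Log2 differences of the other pathway genes by list (points are genes, brightest probe; black bars are list medians; the grey line is the median of all genes and dashed lines mark 2-fold) in the 3 comparisons. In the middle panel 8 response genes lie left of the lower line and 0 right of the upper one.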

How the data were processed

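The title of each sample gave its group. Per the labels, each array's Cy3-labelled RNA came from 3 samples. Per the file headers, Feature Extraction (11.5.1.1) quantified the arrays and wrote, for each spot, a processed intensity that is background-corrected and linear. The deposited value table also holds intensity, and for 99.6% of 39429 probes it equals the spots' mean to within a fraction of 0.001. Control spots (1377 of 44397) and 110 to 136 outlier spots per array were left out, and 0 spots were saturated.

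That intensity was divided by the 75th percentile over an array's probes and log2 was taken. Probes with 50% or more of their spots well above background counted as such. Probes were named by accession through a RefSeq table of another assembly than that of the headers, used for names only (27508 probes matched, 11921 did not). Each gene took its brightest probe of those passing on any array, and differences needed this probe to pass on both arrays compared. Precision is limited by the 1 array per condition, and condition and array cannot be told apart.

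Members, 6 pathway lists, 6 marker lists and the naming rule were chosen with earlier results of these data known. Named are all members, up to 4 genes per list and comparison 2-fold or more apart both as described and after normexp, and the leading markers. Other genes named (Acvr1b, Acvrl1, Smad2, Smad3, Smad4, Smad6, Pmepa1, Mmp2, Lrg1, Col1a1, Fn1, Tnc) were picked after their values were seen. Normexp (offset 50) used the median signal, since the files used here hold no mean signal. The counting was tested on simulated data. The software was limma 3.58.1 (R 4.3.3), numpy 2.4.6, pandas 2.3.3 and matplotlib 3.10.9 (Python 3.11.15).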

Additional observations from a re-analysis of the deposited data

How the results depend on the processing

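Each of the 30 differences of the 10 genes was recomputed under 8 alternatives: normexp, quantile normalization, median scaling, no filter on dim probes, the deposited table, a minimum signal of 100, the mean over probes, and cyclic loess, which was chosen after seeing the data. Tgfb1 kept its direction under all 8, from -2.01 to -1.88 for glucose, 0.58 to 0.62 for DKK2 and -1.43 to -1.28 for DKK2 against normal glucose. The values of Tgfbr1 moved with the mean over probes, to 0.90 for glucose and 1.36 for DKK2 against normal glucose, because its dim second probe then counts. With that mean 2 genes passed 2-fold in the last comparison, 1 of them higher, where 1616 of 16685 genes were higher and 1688 lower. Signs turned under at least 1 alternative for Skil in each comparison, for Tgfb2 in high glucose (-0.18 to 0.06), for Ltbp2 with DKK2 and for Tgfbr3 with DKK2 against normal glucose (-0.10 to 0.20). With a size rule of 1.5-fold 3 genes passed for DKK2 (Tgfb1, Tgfb2 and Smad7), where 2330 of 17825 genes were higher and 2012 lower. For DKK2 against normal glucose 5 passed (Tgfb1, Tgfb2, Tgfb3, Tgfbr1 and Ltbp1), where 4030 of 16676 genes were higher and 3203 lower. At 3-fold 0 passed in the last comparison, where 574 of 16676 genes were higher and 748 lower. Tgfb1 alone passed 3-fold in the glucose comparison, where 105 of 16771 genes were higher and 323 lower. Normexp moved the median of all genes by -0.34 for glucose and -0.37 for DKK2 against normal glucose. Its offset is added before scaling and weighs most on the normal glucose array, the dimmest of the 3. The size of that part was not tested. The count of lower genes went from 960 to 3946 and from 1727 to 4017, and the higher ones from 448 to 171 and from 1744 to 936. The share of higher among called genes went from 31.8% to 4.15% and from 50.2% to 18.9%. For DKK2 against high glucose normexp gave 505 higher and 477 lower genes, beside 905 and 865. Without a filter on dim probes, which tests more genes, 1104 were higher and 2129 lower for glucose, and 1307 and 1351 for DKK2. With a minimum signal of 100, which tests 12165 genes, the higher and lower counts were 219 and 582 for glucose, 394 and 492 for DKK2, and 1059 and 1138 for DKK2 against normal glucose. Cyclic loess moved the median of all genes by -0.12 in the last comparison. Size rules other than 2-fold change these counts by construction. No paired analysis was possible because each group has 1 array.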
